A study of Mus musculus with 4 samples.

Results

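The 10 genes described here, Gm13043, BC080695, Gm13083, Gm13078, Gm13109, Pramef17, Oog2, Pramel5, Gm13128 and Gm13119, belong to the PRAME-like and oogenesin genes of mouse chromosome 4. They were taken by their gene name on the array, and 14 of the 39429 probes read them. The probes lie between 143132296 and 143953930 of chromosome 4 in mm9, a stretch of 821.6 kb, with 7 of the genes on the plus strand and 3 on the minus strand. The genes were picked because their signal was higher after Rif1 siRNA, so the differences between Rif1 siRNA and control siRNA describe the choice and support nothing beyond it. RefSeq now calls BC080695 Pramel20, Gm13083 Pramel21, Gm13078 Pramel24, Gm13109 Pramel16, Pramef17 Pramel14, Gm13128 Pramel30 and Gm13119 Pramel31.

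The cells were E14tg2a, a line of mouse ES cells grown with LIF and serum. Total RNA was labeled with Cy3 and read on 4 one-color arrays, 1 for each condition. The first held non-treated cells (0 h) and the second cells 72 h after transfection of control siRNA. The others held cells given siRNAs against Rif1, a regulator of DNA replication timing, for 48 h or for 72 h. No control siRNA array of 48 h was used here, so the array of control siRNA at 72 h is the reference for both times and the 2 comparisons share it. With 1 array a condition there is no replicate check of any difference and no test, and the precision is limited by the number of arrays.

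PRAME-like proteins are built of leucine-rich repeats. PRAME, the gene the family is named after, is a cancer-testis antigen that can act as the substrate receptor of a Cul2 ubiquitin ligase and binds retinoic acid receptors. The mouse family has expanded into tandem clusters, oogenesins are known from oocytes and early embryos, and several members are transcribed in the 2-cell embryo and in the small share of ES cells that passes through a 2-cell-like (2C) state.

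The promoters of 3 of the genes are shown first, because they are nearly copies of each other and their genes were among those with the largest differences. All 10 genes matched an entry of the RefSeq promoter table (GRCm38.p6), which holds 250 bases before to 50 bases after each start. The 250 bases before the start are printed for Gm13043 (chr4:143511093-143511342), BC080695 (chr4:143567217-143567466) and Gm13119 (chr4:144357714-144357963), all on the plus strand. Capitals mark the letters GATTNAATC and TATAAA on either strand.
Gm13043: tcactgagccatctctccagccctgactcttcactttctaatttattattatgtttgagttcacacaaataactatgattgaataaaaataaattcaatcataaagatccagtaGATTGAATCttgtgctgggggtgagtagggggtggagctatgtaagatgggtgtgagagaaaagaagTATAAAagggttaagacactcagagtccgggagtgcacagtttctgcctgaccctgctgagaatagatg
BC080695: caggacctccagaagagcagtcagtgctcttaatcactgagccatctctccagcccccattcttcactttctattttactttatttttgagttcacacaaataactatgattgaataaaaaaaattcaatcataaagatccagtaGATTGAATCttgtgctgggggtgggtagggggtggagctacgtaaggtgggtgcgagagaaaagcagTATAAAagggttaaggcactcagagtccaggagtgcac
Gm13119: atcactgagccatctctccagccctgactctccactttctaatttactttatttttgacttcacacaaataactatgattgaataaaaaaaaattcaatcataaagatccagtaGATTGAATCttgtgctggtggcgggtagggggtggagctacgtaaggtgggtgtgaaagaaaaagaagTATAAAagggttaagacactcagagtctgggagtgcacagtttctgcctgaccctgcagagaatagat

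The letters GATTNAATC, which read the same on both strands, are the core of the motif known for Dux, a homeodomain factor of the 2-cell embryo, and were chosen for the search after the promoters had been read. They begin 136 bases before the start in Gm13043 and Gm13119 and 105 bases before it in BC080695, whose annotated start lies farther upstream within the same sequence. TATAAA, the TATA box letters, follows at 69, 68 and 38 bases before the start in Gm13043, Gm13119 and BC080695. Over the best local alignment Gm13043 and Gm13119 were 94.7% identical in 300 columns, Gm13043 and BC080695 93.3% in 270 columns, and BC080695 and Gm13119 92.6% in 271 columns. GATTNAATC stands in 88 of all 32851 promoters of RefSeq's set (0.268%) and in 3 of the 10 here. Of the 12 other protein-coding PRAME-like genes that RefSeq lists between them with a promoter, 2 hold it, Gm13040 and Gm13057, whose 300 bases are identical to those of BC080695 and which have no probe of their name on the array. Whether the BC080695 probe also reads their transcripts was not tested, since transcript sequences were not used here. A match describes the letters only. None of the 4 Zscan4 promoters and none of the 4 Usp17l promoters in the table holds GATTNAATC in this window (0 of 4 each).

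The level of a probe is its processed signal divided by the array's 75th percentile, and levels of different probes are not compared. A probe counts as well above background by the flag of the scanner software, and where one side of a comparison was not well above background the difference is given as a lower bound, against the probe's own level or, where that was smaller, against the dimmest level that carried the flag (0.0236 for untreated cells, 0.0159 for control siRNA). Of the 14 probes 6 were well above background in untreated cells, 8 with control siRNA, and 14 at both times of Rif1 siRNA. Of all spots 58.8% were in untreated cells, 62.8% with control siRNA, and 71.5% and 74.1% at 48 h and 72 h of Rif1 siRNA. The dimmest flagged level was 0.00779 at 48 h and 0.00543 at 72 h, so the flag reached dimmer levels there. On each of the 14 probes both Rif1 siRNA arrays stood above both other arrays. The genes were picked for being higher there, and the share of all probes with this order was not counted. Against control siRNA 13 of the 14 probes were over 2-fold higher at 72 h and 13 at 48 h, lower bounds included, and 12 were over 4-fold higher at either time. Among all 27739 probes that passed the filter on dim signals, 2.82% were over 2-fold higher at 72 h and 3.17% at 48 h, and 1.29% and 1.35% were over 4-fold higher. None of the 14 was over 2-fold lower (0 of 14), beside 1.00% of all probes at 72 h and 1.19% at 48 h. All 14 probes passed that filter, 6 of them through the Rif1 siRNA arrays alone. A higher signal in bulk RNA can come from more cells that transcribe a gene or from more RNA per cell, and these cannot be told apart here.

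**Figure D1:**
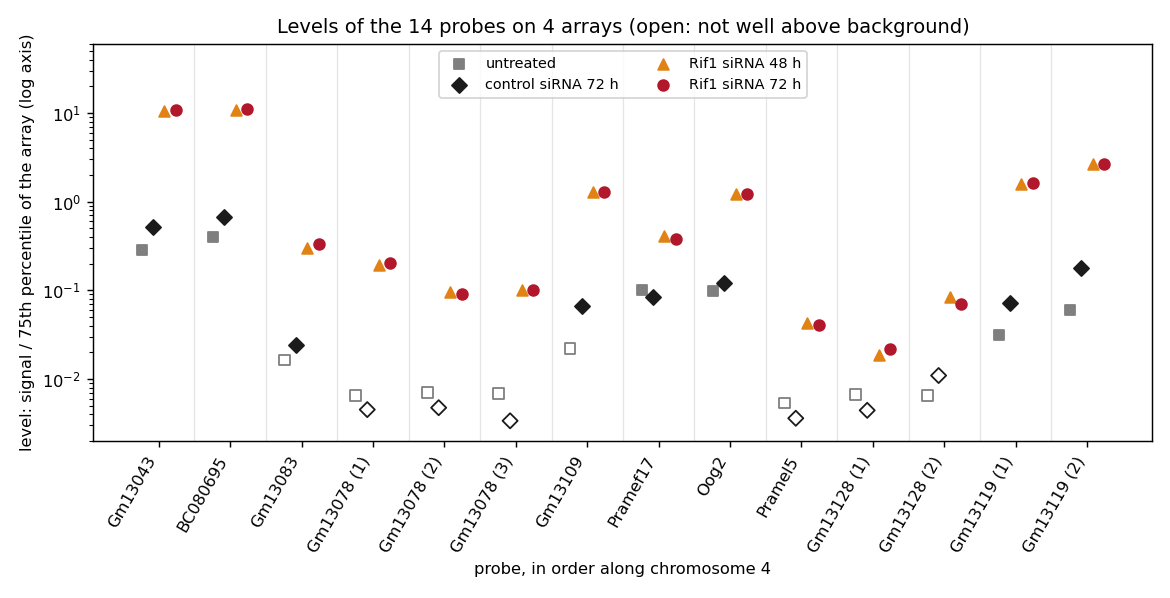
Level of each of the 14 probes (signal over the 75th percentile of the array, log axis) on the 4 arrays, 1 array per condition, with the probes in order along chromosome 4. Open symbols were not well above background. The 2 Rif1 siRNA arrays lie together and above the other 2 on each probe, and the genes were picked for being higher there.

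Gm13043, a PRAME-like gene at the start of the cluster, had a level of 0.286 in untreated cells and 0.525 with control siRNA, and with Rif1 siRNA of 10.5 at 48 h and 10.7 at 72 h. Both Rif1 siRNA arrays were high and lay close to each other, and untreated cells were the lowest. Its difference was 20.1-fold at 48 h and 20.4-fold at 72 h (log2 4.33 and 4.35). BC080695 was at 0.399, 0.667, 10.95 and 11.01 in the same order, 16.4-fold and 16.5-fold above control siRNA, with the same order of the arrays. Gm13119, at the far end of the cluster, is read by 2 probes. The first was at 0.0310 in untreated cells, 0.0712 with control siRNA, 1.58 after 48 h and 1.63 at 72 h, which was 22.2-fold and 22.9-fold above control siRNA (log2 4.52 at 72 h, 3.90 with normexp background correction). The second was at 0.0594, 0.180, 2.68 and 2.69, which was 14.9-fold and 15.0-fold above it. The 2 probes of Gm13119 gave the arrays the same order and differed in the size of the change.

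The other genes have promoters unlike that form. Gm13109, on the minus strand in the middle of the cluster, was not well above background in untreated cells (0.0222) and was at 0.0667 with control siRNA, 1.29 after 48 h and 1.28 at 72 h, 19.4-fold and 19.2-fold above control siRNA. Its promoter had no near copy among the 22 examined. Gm13083 was also not well above background in untreated cells (0.0165), stood just above it with control siRNA (0.0241) and reached 0.301 at 48 h and 0.335 at 72 h. That was 12.5-fold and 13.9-fold (log2 3.80 at 72 h), and its promoter too had no near copy. With normexp background correction the 72 h difference was 2.45 on the log2 scale for Gm13083 and 3.62 for Gm13109.

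Gm13078 is read by 3 probes at neighboring positions, and none of them was well above background without Rif1 siRNA. The first was at 0.00656 in untreated cells and 0.00453 with control siRNA, and at 0.192 and 0.203 after 48 h and 72 h of Rif1 siRNA. At 72 h they were at least 12.8-fold, at least 5.76-fold and at least 6.44-fold above control siRNA, and at 48 h at least 12.1-fold, at least 5.98-fold and at least 6.44-fold. The 3 bounds stand for 1 gene and are set by the background of the control array, so their spread says nothing of the size of the true change. With normexp background correction the 3 bounds at 72 h were 1.94, 1.05 and 1.48 on the log2 scale.

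Pramef17 had the smallest of the 8 differences measured on both sides. It was at 0.100 in untreated cells, 0.0851 with control siRNA, 0.413 after 48 h and 0.383 at 72 h, 4.86-fold and 4.50-fold above control siRNA. Among the members well above background on all 4 arrays, it was the one whose control siRNA value lay below that of untreated cells. Gm13128, whose 300-base promoter is 97.7% identical to that of Pramef17, was not well above background without Rif1 siRNA on either of its 2 probes. One of them, at 0.0853 after 48 h and 0.0704 after 72 h, was at least 5.38-fold higher at 48 h and at least 4.44-fold higher at 72 h. The other, at 0.0186 and 0.0217 on the Rif1 siRNA arrays, was at least 1.17-fold and at least 1.37-fold higher, and it was the probe that did not pass 2-fold. Just inside the threshold stood Pramel5, at 0.0434 at 48 h and 0.0408 at 72 h, at least 2.74-fold and at least 2.57-fold above control siRNA, with no signal well above background in the 2 other conditions. With normexp background correction the 72 h differences of Pramel5 and of the first-named Gm13128 probe were 0.45 and 0.80 on the log2 scale, lower bounds under 2-fold.

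Oog2, oogenesin 2, first known from oocytes and early embryos, was at 0.0990 in untreated cells, 0.120 with control siRNA, 1.22 after 48 h and 1.21 at 72 h. It stood 10.1-fold above control siRNA at both times, and its 2 arrays without Rif1 siRNA lay close together. Among the 24312 probes measured on both arrays of the 72 h comparison, 33 to 228 had a larger difference than the 8 member probes measured there. The median of these 8 was 3.97 on the log2 scale at 72 h and 3.97 at 48 h, beside -0.07 over all probes at either time. The error that the scanner software gives for a spot was at most 17.4% of the signal for member probes well above background with control siRNA and at most 12.9% at 72 h of Rif1 siRNA, and covers the array alone.

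**Figure D2:**
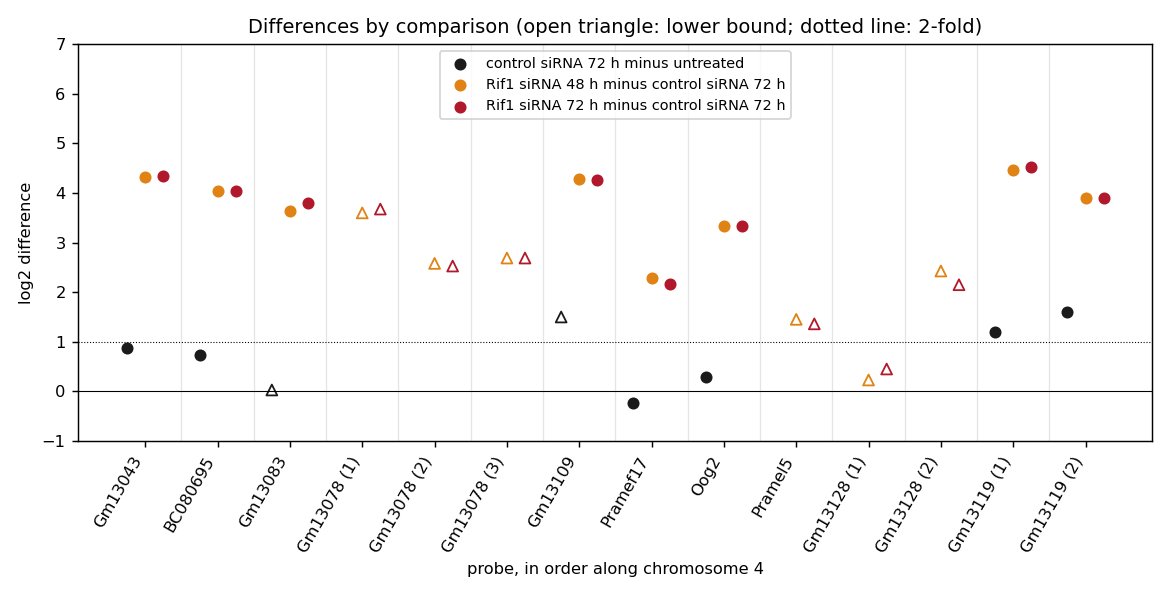
Log2 differences of the 14 probes for control siRNA at 72 h minus untreated cells and for Rif1 siRNA at 48 h and at 72 h minus control siRNA at 72 h. Open triangles are lower bounds, and a comparison with both sides at background has no symbol. The 48 h and 72 h points lie side by side on each probe, while the control siRNA points lie between -0.23 and 1.60.

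The members had nearly the same level at both times. From 48 h to 72 h, in a comparison that leaves out the control array, the log2 difference of the 14 probes ran from -0.28 to 0.22 with a median of 0.0034, and 0 of 14 passed 2-fold in either direction. Among all probes 0.490% were over 2-fold higher at 72 h than at 48 h and 0.678% over 2-fold lower, and the SD of the differences over all probes was 0.285. Both ends of the range were probes of Gm13128. Rif1 itself, the target, was at 5.55 untreated and 5.42 with control siRNA, then at 2.15 after 48 h of its siRNA and 4.15 after 72 h. It was thus 0.396-fold of control siRNA at 48 h and 0.765-fold at 72 h, so the Rif1 signal differed between the times by more than any member probe did.

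Control siRNA against untreated cells shares the control array with the differences by which the genes were picked. The genes were also chosen with earlier results of these data known, so this contrast is not independent of the choice. It gave 6 probes measured on both arrays. Of these 5 were higher with control siRNA and 1 lower, with a median of 0.81 on the log2 scale (1.75-fold) beside -0.01 over all probes, whose SD was 0.256. Over 2-fold higher were 3 of the 14, both probes of Gm13119 (2.30-fold and 3.03-fold) and Gm13109 (at least 2.83-fold), where 0.584% of all probes were, and 0 of 14 were over 2-fold lower, where 1.02% of all were. Zscan4 had a median of 1.11 on the log2 scale here, with 6 of 7 probes over 2-fold higher. Usp17l had 0.485 with 3 of 7, and PRAME-like genes outside the stretch 0.33 with 5 of 25, lower bounds included in the counts. Among the members, Gm13043 was 1.84-fold higher, BC080695 1.67-fold and Oog2 1.22-fold, while Pramef17 was at 0.851-fold. Transfection and 72 h of culture both separate these arrays, and they cannot be told apart.

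The size of the Rif1 siRNA values differed with the reference. Against untreated cells 12 of 14 probes were over 2-fold higher at 72 h, beside 2.54% of all probes, and 0 of 14 were lower, beside 1.44%. The median of the 6 measured was 5.01 on the log2 scale. Gm13119 was 52.5-fold and 45.3-fold higher against untreated cells, Gm13043 37.4-fold and BC080695 27.6-fold, all well over their values against control siRNA. Gm13109 was at least 54.3-fold higher and Oog2 12.3-fold. Pramef17 was 3.83-fold higher, less than against control siRNA, and Pramel5 was at least 1.73-fold higher and no longer past 2-fold.

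The other PRAME-like genes of the array were split by place. Between the outermost member probes lie 13 probes of 8 such genes by name, of which 4 passed the filter. Of these 0 were over 2-fold higher at 72 h, beside 2.82% of all probes. Outside this count are 2 probes without a gene symbol, 21.7-fold and 16.4-fold higher at 72 h. They lie where RefSeq orders the PRAME-like Pramel28 and Gm13102, and are described with the neighbours below. Gm13023 was at 1.07-fold of control siRNA, Gm13084 at 0.899-fold, Gm13089 at 0.627-fold and C87977 at 0.362-fold. C87977 was at 0.0311 with control siRNA and 0.0112 at 72 h. Gm13084, Gm13089 and C87977 were near background with control siRNA and not well above it in untreated cells. The 9 others, among them those of Gm13088, Gm13103, Pramel4 and Oog3, did not pass the filter on dim signals. Gm13023 was well above background on all 4 arrays on the probe that passed (0.138, 0.125, 0.129 and 0.134 for untreated cells, control siRNA, and 48 h and 72 h of Rif1 siRNA). Since genes were picked for being higher, this says which PRAME-like genes of the stretch were left out and is not a test. Beside the cluster, Pramef8 was at 1.53-fold and Pramef12 at 1.18-fold, both with signals well above background in all 4 conditions.

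**Figure D3:**
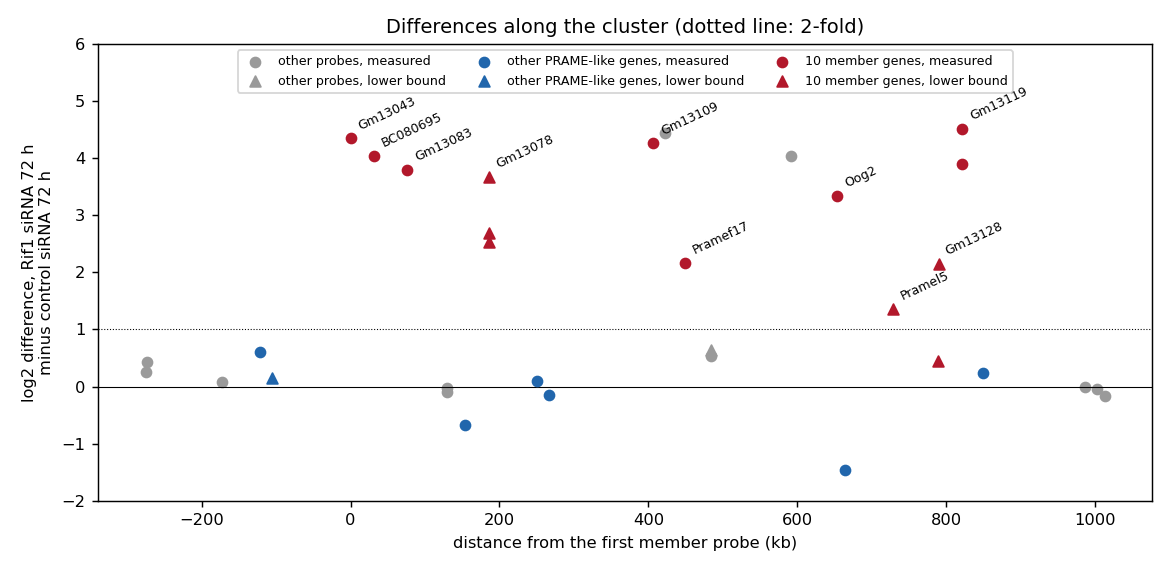
Log2 difference between Rif1 siRNA at 72 h and control siRNA at 72 h by distance from the first member probe (kb). Red points are the members, blue points other PRAME-like genes and gray points other probes, with triangles for lower bounds; probes at background on both arrays are not drawn. Members above the dotted 2-fold line stand among other PRAME-like genes near or below 0, and 2 gray points lie as high as the members. These 2 carry no gene symbol and lie where RefSeq orders the PRAME-like Pramel28 and Gm13102.

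The last 120 bases before the start are shown for Oog2 (chr4:144190597-144190716, plus strand) and Gm13084, which RefSeq calls Pramel26 (chr4:143816094-143816213, minus strand). The promoters are 95.3% identical over 296 columns. Oog2 was higher, while the 1 measured probe of Gm13084, near background, was not. Capitals mark TATAAA.
Oog2: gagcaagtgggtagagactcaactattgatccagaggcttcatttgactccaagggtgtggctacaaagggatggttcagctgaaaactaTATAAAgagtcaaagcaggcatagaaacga
Gm13084: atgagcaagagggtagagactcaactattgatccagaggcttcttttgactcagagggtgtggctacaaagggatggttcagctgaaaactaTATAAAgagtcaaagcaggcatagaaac

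TATAAA begins 30 bases before the start in Oog2 and 28 in Gm13084, and 13.6% of all promoters hold these letters on either strand. The measured probe of Gm13084 was at 0.0234 with control siRNA and 0.0210 at 72 h, and its 2 other probes stayed at background on all 4 arrays. The promoters of Gm13089, Gm13023, Gm13103, Oog3 and C87977 were also like that of Oog2, with 63.3% to 80% of the 300 bases identical. Of their 6 probes 3 were measured at 72 h, those of Gm13089, C87977 and 1 of Gm13023, with the values given above. The 3 others were not well above background on either array of that comparison and could not be called, though Gm13103 was well above it at 48 h, at least 1.41-fold over control siRNA. A second pair with like promoters is Pramel5 (chr4:144280467-144280586, minus strand) and Pramel4 (chr4:144059005-144059124, plus strand), with 90.2% identity over 296 columns. Neither holds TATAAA or GATTNAATC in the window.
Pramel5: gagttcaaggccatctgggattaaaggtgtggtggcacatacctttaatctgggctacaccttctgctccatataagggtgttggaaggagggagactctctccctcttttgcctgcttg
Pramel4: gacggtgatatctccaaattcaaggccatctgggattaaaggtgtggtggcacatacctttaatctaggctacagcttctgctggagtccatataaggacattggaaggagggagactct

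The Pramel4 probe stayed at background on the 4 arrays, with levels from 0.00355 to 0.00635, and could not be called higher or not. Pramel5 was well above background on both Rif1 siRNA arrays alone. The promoter of Gm13102, which has no probe of its name, was nearer to that of Pramel5, with 94.1% identity over 289 columns. Promoter likeness was not tested against the signal, since the genes were chosen by it.

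**Figure D4:**
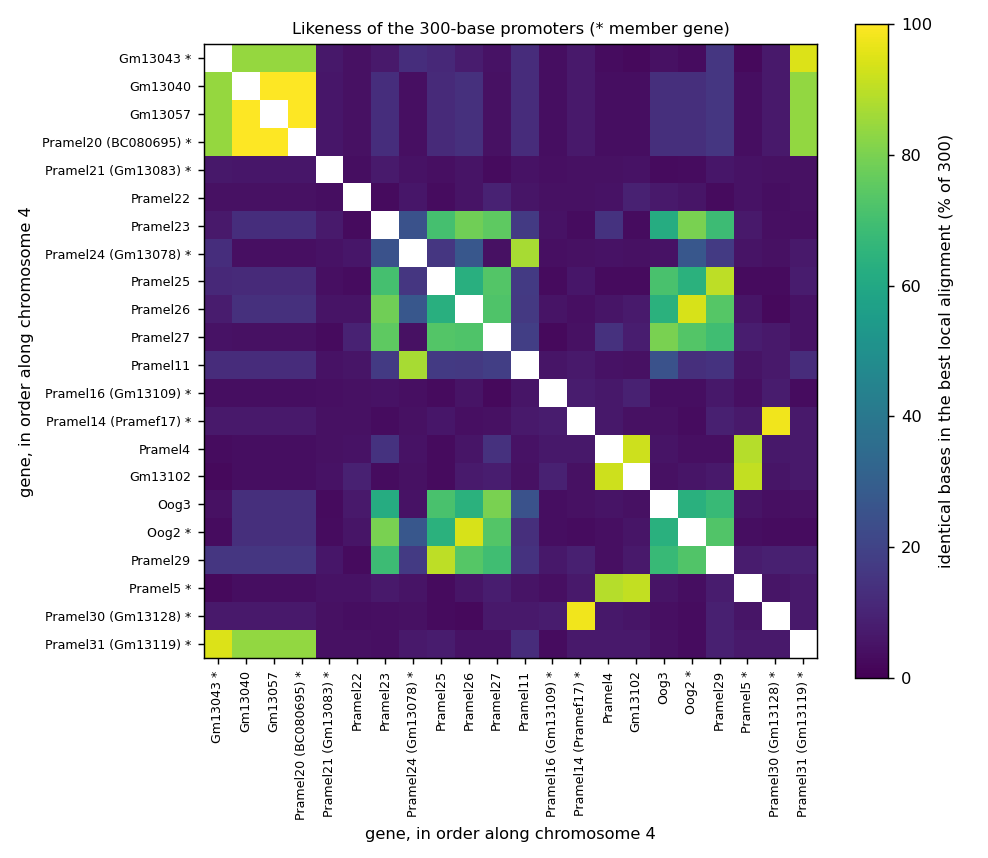
Identical bases in the best local alignment of each pair of 300-base promoters, as percent of 300, for the 10 members (asterisks) and 12 other PRAME-like genes in order along chromosome 4. Bright blocks join Gm13043, Gm13040, Gm13057, Pramel20 and Pramel31, the genes like Oog2, Pramel14 with Pramel30, Pramel24 with Pramel11, and Pramel4, Gm13102 and Pramel5.

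Other probes within 1 Mb of the cluster, not named as PRAME-like, numbered 34. Of these 23 passed the filter and 2 were over 2-fold higher at 72 h, beside 2.82% of all probes. Both lie inside the cluster and carry no gene symbol. The probe named ENSMUST00000105763, at 143554421 of chromosome 4 in mm9 between Gm13109 and Pramef17, was at 0.0729, 0.146, 3.18 and 3.17 without siRNA, with control siRNA and after 48 h and 72 h of Rif1 siRNA. It was 21.7-fold higher at 72 h. In RefSeq's gene order the pseudogene Pramel28 (Gm13101) lies there. The probe A_55_P2107785, at 143724133 between Pramel4 and Oog3, was at 0.142, 0.243, 3.40 and 3.98 and 16.4-fold higher at 72 h. Gm13102 lies there in RefSeq's order, and no file pairs the probe with it. The next largest was A_55_P2015122, also inside the cluster and without a symbol, at least 1.56-fold higher. Of the 23 probes that passed, 19 were measured within 2-fold at 72 h, and Gm436, outside the cluster, was at least 1.26-fold higher. Of the flanking genes, Prdm2, a histone methyltransferase gene, was at 1.39-fold, Pdpn, a membrane glycoprotein gene, at 1.19-fold and 1.35-fold, and Dhrs3, a retinaldehyde reductase gene, at 1.14-fold.

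Of all other probes on the array 1 shared a run of 16 bases with a member probe, and the pair is shown because it joins a member to one of the unnamed probes. The second Gm13119 probe and the ENSMUST00000105763 probe are identical in 57 of 60 aligned columns. The first 30 aligned bases differ by C13G, counted from 1 at the first base printed, with the Gm13119 base first and the differing base in capitals.
Gm13119: tagagagtggacCtgtgaggagaaatgact
ENSMUST00000105763: tagagagtggacGtgtgaggagaaatgact

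Whether each of these probes also binds the other's transcript was not tested, so both values are uncertain. Their values against control siRNA at 72 h were 15.0-fold and 21.7-fold. The other Gm13119 probe shares no run of this length with any probe of the array and was 22.9-fold higher.

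PRAME-like genes on other chromosomes and elsewhere on chromosome 4 were read by 32 probes of 21 genes. Of these 25 passed and 16 were over 2-fold higher at 72 h, beside 2.82% of all probes. Gm12794 and B020004J07Rik, elsewhere on chromosome 4, were 21.2-fold and at least 34.0-fold higher. On chromosome 5, the 2 probes of A430089I19Rik were 22.9-fold and 21.9-fold higher and those of Gm7978 22.1-fold and 16.7-fold, while C87414 was 5.65-fold higher on its measured probe. Pramel7 and Pramel6 on chromosome 2, known from ES cells and the blastocyst, were 9.25-fold and 5.69-fold higher. Prame itself, on the X chromosome, was not well above background in untreated cells or with control siRNA and was at least 1.27-fold higher.

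The genes of the complex and the targets known for PRAME-like proteins gave 20 of 21 probes that passed the filter. Of these 0 were over 2-fold higher at 72 h, beside 2.82% of all probes. The scaffold Cul2, the adaptors Tceb1 and Tceb2 (elongin C and B) and the ring protein Rbx1 were all within 2-fold. Uhrf1, the maintenance methylation cofactor known as a target of Pramel7, was at 18.1 with control siRNA and 16.3 at 72 h (0.904-fold). The retinoic acid receptor gene Rarb was, on the probe measured on both sides, at 0.0248 with control siRNA, 0.0571 after 48 h and 0.0480 at 72 h, 2.30-fold and 1.93-fold. Other genes of the oocyte were read by 11 probes. Of these 6 passed and 0 were over 2-fold higher at 72 h, beside 2.82% of all probes, with a median of 1.35-fold, bounds included. Nobox was at least 1.84-fold higher, Kit 1.62-fold, Figla 1.44-fold, Nlrp5 1.26-fold and Gdf9 1.03-fold, while Zp3 was at 0.825-fold, and Zp1, Zp2, Bmp15 and Oosp1 stayed at background throughout.

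The line was checked against its markers. All 13 probes of 8 marker genes were within 2-fold at 72 h, and their summed level ran from 348.0 to 366.9 over the 4 arrays. Of the markers of other cells, the trophoblast gene Cdx2 was at 0.0500 with control siRNA and 0.106 at 72 h (2.11-fold), with a summed level of the 4 trophoblast probes from 0.21 to 0.313, and its part in the members' values was not tested. Among the endoderm, mesoderm, ectoderm and fibroblast markers 0 probes were over 2-fold higher or lower at 72 h, beside 2.82% and 1.00% of all probes. At 48 h the mesoderm marker Mesp1 was at 0.373-fold of control siRNA, with levels of 0.0387 and 0.0144. With control siRNA against untreated cells all 6 endoderm probes were lower, with a median of 0.674-fold and 1 Foxa2 probe at 0.491-fold, and 1 Eomes probe of the trophoblast list was at 0.558-fold, while Cdx2 at 72 h was 3.08-fold above untreated cells. The part of these in the members' values was not tested. The summed level of endoderm markers was 2.15 in untreated cells, 1.60 with control siRNA and 1.35 at 72 h. That of fibroblast markers was 3.76 with control siRNA and 4.39 at 72 h, with Col1a1 at 1.76-fold, Col1a2 at 1.77-fold and Thy1 at 1.04-fold. The member probes summed to 1.05, 1.77 and 29.8 in untreated cells, with control siRNA and at 72 h. At 72 h Gm13043 (10.7) and BC080695 (11.0) made up most of that sum. Sums follow the brightest probes and are not compared between lists.

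Among 22512 other probes well above background on all arrays, those whose course over the 4 arrays lay nearest the mean course of the 6 member probes measured on all arrays were AF067061 and Lgals4, a galectin gene, with root mean square differences of 0.047 and 0.049 (log2). AK141540, 2 probes without a symbol, Zscan4f, Gm4340 and Cacna1s followed, with 0.077 to 0.12. The 7 probes of Zscan4, the 2C marker family, were all over 2-fold higher at 72 h, with a median of 4.30 on the log2 scale. Of Usp17l 6 of 7 probes were, with a median of 4.32, beside 2.82% of all probes. From 48 h to 72 h all 7 Zscan4 probes were slightly higher, by a median of 0.24 on the log2 scale, where the member probes had a median of 0.0034. The 7 Usp17l probes had a median of 0.04, with 5 higher and 2 lower, and the other PRAME-like probes that passed one of -0.005. Without replicates no test of these differences was possible.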

How the data were processed

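The authors deposited, per the labels, the output of Agilent Feature Extraction 11.5.1.1, in which each spot has a processed intensity, background-subtracted and detrended within the array, with flags and an mm9 position. The authors also deposited a table of each signal as a ratio to about the 75th percentile of its array. Here each processed signal was divided by the 75th percentile over its array and put on the log2 scale, with outlier spots left out and repeated spots averaged. A probe passed the filter if it reached the 20th percentile on at least 1 array and had a spot that was well above background or flagged as an outlier on at least 2 of 4 arrays, and 27739 of 39429 did. Where both sides were dim, or a bound was under 1, no fold change was given. Names came from the array, and 27508 of 29149 RefSeq-type accessions matched RefSeq (GRCm38.p6). Promoters were aligned locally (match 2, mismatch -3, gap -5 and -2). Python 3.11.15, pandas 2.3.3, numpy 2.4.6 and, for normexp, R 4.3.3 with limma 3.58.1 were used, and the steps were tested on simulated data. The members, the lists of genes and the rule that names the 8 probes of nearest course were chosen with earlier results of these data known, and the sequence comparisons after seeing the data. Nothing shows whether the position of a probe is coding or untranslated, since no mm9 annotation was used. Alternatives were normexp (offset 50), quantile normalization, ratios as deposited, another scaling percentile, dim signals as given, no filter, untreated cells as reference and a 4-fold threshold.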

Additional observations from a re-analysis of the deposited data

How the results depend on the processing

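No paired analysis was possible because there was 1 array per condition. The count of member probes over 2-fold higher ran from 11 to 14 at 72 h and from 12 to 14 at 48 h over the alternatives, and each difference at 72 h that could be given stayed above 0 (14 probes, or 13 with untreated cells as the reference). A median was called moved past 0.256 (log2), the SD over all probes of control siRNA against untreated cells, since the arrays used here give no replicate SD. Normexp, which adds an offset to every signal, lowered the median to 3.61 at 72 h and 3.62 at 48 h and moved the median of all probes to -0.11 at 72 h; with it the smallest single difference was 0.01, and the 2-fold call at 72 h was lost for Pramel5 and for 1 probe of Gm13128. Untreated cells as the reference raised the 72 h median to 5.01 and gave 1 partner probe (Rarb, a lower bound) over 2-fold higher instead of 0. Taking dim signals as given lowered the median of control siRNA against untreated cells to 0.42, since 14 probes then entered. The median between 48 h and 72 h lay between -0.0061 and 0.0052. The other PRAME-like probes over 2-fold higher numbered 12 to 21 and the neighbours 2 to 3. Signals near background limit Gm13078, Pramel5 and Gm13128 to lower bounds.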
